A study of Canis lupus familiaris with 12 samples.

Results

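The expression changes described here are those of robenacoxib against no treatment in Mi/CMM1, a cell line from an oral melanoma of a dog. They were taken from the 3 arrays whose titles name robenacoxib and the 3 whose titles name control, which together are 6 of the 12 arrays of the series. The remaining arrays, 3 with piroxicam and 3 with carprofen, entered the same model and serve below to test differences between drugs. Robenacoxib was given at 156 µM, described as its half-maximal inhibitory concentration, and the sample titles give an exposure of 6 h while the treatment protocol gives 24 h. Control cells are labelled as untreated with no vehicle named, so robenacoxib and any solvent it came in cannot be told apart. Both groups are the same cell line, sampled at 1 time and, for the drug, at 1 dose. The series' design calls the replicates biological, but how the cultures were kept apart is not described, so the p-values measure only the spread between these samples.

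Robenacoxib is a nonsteroidal anti-inflammatory drug used in dogs and cats that inhibits the inducible cyclooxygenase COX-2, the product of PTGS2, more strongly than the constitutive COX-1, the product of PTGS1. Both enzymes turn arachidonic acid into prostaglandin H2, from which further synthases such as PTGES make prostaglandin E2. Prostaglandin E2 acts through surface receptors, among them PTGER2 and PTGER4, and in many tumours it supports growth, survival and inflammatory signalling.

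Levels are log2 signals relative to each array's 75th percentile, and differences are robenacoxib minus control on that log2 scale, with limma's standard error (SE). Adjusted p-values come from limma's test with Benjamini-Hochberg adjustment over all 31998 tested probes, and a probe below 0.05 is called. Between 73.1% and 79.3% of spots on the 6 arrays were well above background. Correlations across probes were 0.9985 to 0.9991 among control arrays, 0.9973 to 0.9976 among robenacoxib arrays and 0.9961 to 0.9972 between the groups. The control arrays lay on 1 slide and the robenacoxib arrays on another, each scanned as a unit. Drug and slide can therefore be separated only through the other drugs, piroxicam 3 on the robenacoxib slide and carprofen 1 on the control slide, and the p-values of a fit without slide leave any difference between slides uncovered. The transcripts spiked in at labelling averaged 12.75 to 12.81 in log2 signal on the control arrays and 12.55 to 12.59 on the robenacoxib arrays. These ranges did not overlap (exact two-sided permutation p = 0.1, the smallest that 3 against 3 can give). Scaling to these transcripts adds 0.30 to every log2 change, so that a fall described here is a fall against the bulk of the array.

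Many transcripts differed by small amounts between the robenacoxib and control arrays. Of 31998 tested probes, 7144 (22.3%) were called, 3082 (9.63%) higher and 4062 (12.7%) lower; with spike-in scaling the split was 21577 higher and 157 lower. The median absolute change among called probes was 0.20, a 1.15-fold difference, and 93.9% of them changed by less than 1.5-fold. Of the 832 gene symbols that could be assigned, 614 had a tested probe, and 218 had none. Among the 614 genes, 145 (23.6%) were called, 43 higher and 102 lower, with non-overlapping groups in each case. Groups that did not overlap were found for 41.5% of all tested probes. Of the 102 genes called lower, 15 stayed below 0 with spike-in scaling. Only 1 of these, VPS52, was still called lower with that scaling.

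The calls of named genes held unevenly when the processing was varied. Over 17 settings (other scalings, filters and blocks and leaving out each array, but not the fixed slide block or spike-in scaling), 43 of the 145 genes lost their call in none and 102 in at least 1. In over 8 of the 17, 35 genes lost it, and of the genes described below these are ADM, BAD, CAV2, CCL17, CD1A6, CD40LG, DCN, FCGR1A, IL5, KLK1, MDM2, MET, PTGER4, RPL27, SEC11A, ST6GALNAC1, TFPI, THBD and TIMP2. Their changes are given below with that limit.

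The direction of the calls varied with the signal level. When the tested probes were split by level into 4 equal groups, the brightest held 6.88% called higher and 21.7% lower, and the next brightest 15.5% and 16.6%. In the dimmest group, where the median SE was 0.22 against 0.036 in the brightest, 3.49% were higher and 2.61% lower. Among the 614 genes the larger rises were in dim genes and the falls ran across the whole range of levels, as the plot of change against level shows.

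**Figure D1:**
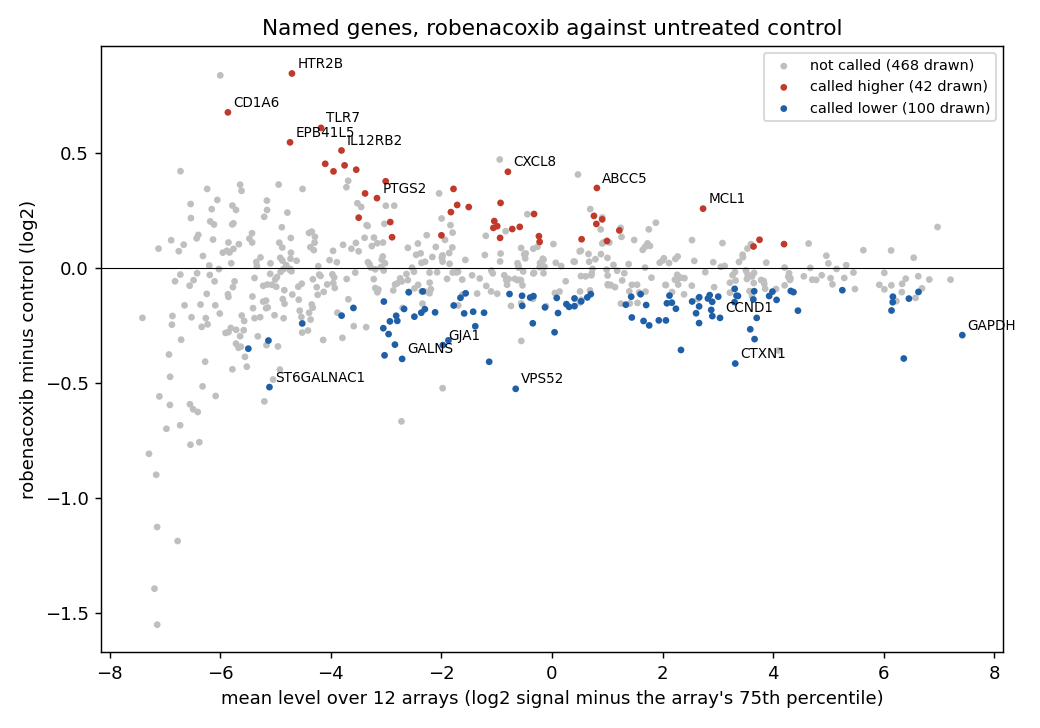
Change with robenacoxib (log2, y axis) against mean level over the 12 arrays (x axis, log2 signal minus the array's 75th percentile) for the named genes; red and blue points were called higher and lower, grey points were not called, and TBXT, which was below background on the control arrays, is left out, as are genes not reported here. HTR2B stands highest among the called genes and VPS52 lowest. Of all 102 genes called lower, 15 stay below 0 with spike-in scaling, and only 1 is still called lower.

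The largest change lay in a transcript without a gene name here. Probe A_11_P0000014469, which the array's annotation ties to a predicted transcript that the RefSeq table does not name, stood at -3.14, -3.15 and -3.17 on the control arrays and -0.41, -0.50 and -0.54 on the robenacoxib arrays. All 3 robenacoxib arrays were far above the 3 controls. The difference was 2.67, 6.37-fold (SE 0.039, adjusted p = 2.17e-09), and it was 2.61 with slide as a fixed block (adjusted p = 0.000133). Over the 19 alternative settings it ranged from 2.35 to 2.97 and was called in each.

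With the other drugs the same probe differed from control by 0.055 with piroxicam (adjusted p = 0.333) and -0.093 with carprofen (adjusted p = 0.101), and neither was called. Robenacoxib exceeded piroxicam by 2.62 (adjusted p = 2.62e-09) and carprofen by 2.76 (adjusted p = 1.58e-09), at doses that were not matched. With slide as a fixed block, where piroxicam 3 shares the slide of the robenacoxib arrays, these differences were 2.63 (adjusted p = 6.26e-06) and 2.75 (adjusted p = 3.43e-05).

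In all, 32 probes rose and 12 fell by at least 2-fold. Signal well above background on each of the 6 arrays was found for 18 and 5 of them. Some of the others, in both directions, were tested only because of their signal in the group where they were higher. The calls of those probes are no support for their changes. With slide as a fixed block 9 of the 44 were still called. Among probes well above background on all 12 arrays, the next largest rise was that of A_11_P081236, from -7.13, -6.76 and -6.46 on the control arrays to -5.44, -5.50 and -5.40 (1.34, SE 0.21, adjusted p = 0.00215). The largest falls were those of A_11_P0000041134 (-1.14, SE 0.11, adjusted p = 0.000139) and A_11_P146888 (-1.10, SE 0.11, adjusted p = 0.000183). These 3 probes lost their call with slide as a fixed block, at 1.46, -1.34 and -0.73. A_11_P0000041134 also lost it with normexp and 75th-percentile scaling (-0.31), and was -0.46 with normexp and quantile normalization. The 2 that fell were also below 0 with spike-in scaling, and none of the 4 could be named.

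Among the 9 tested prostanoid genes, of the pathway that robenacoxib blocks, 3 were called higher and none lower on the brightest probe, beside 23.6% of all named genes called in either direction, with a median change of 0.14 against -0.030 over all tested probes. PTGS2, the target enzyme, stood at -3.25, -3.18 and -3.27 on the control arrays and -2.98, -2.86 and -2.95 on the robenacoxib arrays. The lowest robenacoxib array was above the highest control. PTGS2 rose 1.23-fold (difference 0.30, SE 0.046, adjusted p = 0.00181); with slide as a fixed block the difference was 0.48 (adjusted p = 0.059).

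The receptor genes of the pathway behaved differently from one another. PTGFR, the prostaglandin F receptor, rose from -3.71, -3.73 and -3.72 to -3.49, -3.46 and -3.56 (0.22, SE 0.041, adjusted p = 0.00558). Its call was lost with normexp, with quantile normalization, in the authors' deposited values and with slide as a fixed block (0.27, adjusted p = 0.209). The smallest change over the alternative settings was 0.077. PTGER4, a prostaglandin E2 receptor that signals through cyclic AMP, rose by 0.14 (SE 0.044, adjusted p = 0.0453), close to the threshold. PTGER2, which couples to the same second messenger, was dim, at -5.72, -6.17 and -5.82 on the control arrays and -5.93, -5.93 and -6.03 on the robenacoxib arrays. Its groups overlapped, and the difference of -0.058 had a 95% interval of -0.41 to 0.30 (adjusted p = 0.842).

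Upstream and downstream of the target the data left wide limits. PTGS1, the other cyclooxygenase, was read at -6.40, -6.94 and -6.29 on the control arrays and -5.47, -5.53 and -6.12 on the robenacoxib arrays. The difference of 0.84 had an interval of -0.49 to 2.16 (adjusted p = 0.357) and was -2.17 with slide as a fixed block, so no direction was measured. PTGES, the inducible prostaglandin E synthase, missed the threshold on its brighter probe (-0.34, interval -0.58 to -0.088, adjusted p = 0.0564). Its second probe was called lower (-0.48, adjusted p = 0.0147). PLA2G1B, SLCO2A1 and PTGDS, which respectively release fatty acids, import prostaglandins and make prostaglandin D2, were not called.

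HTR2B gave the largest rise among named genes well above background on all 6 arrays. This serotonin receptor, which signals through phospholipase C, stood at -5.32, -5.25 and -5.31 on the control arrays and -4.60, -4.35 and -4.38 on the robenacoxib arrays. It rose 1.80-fold (0.85, SE 0.066, adjusted p = 4.27e-05), and the difference was 0.82 with slide as a fixed block (adjusted p = 0.066). Of the 14 tested serotonin, adrenergic, dopamine and related receptors, HTR2B alone was called higher and ADORA2A, an adenosine receptor, was called lower (-0.16, but 0.14 with spike-in scaling). The second ADORA2A probe was not called (-0.11, adjusted p = 0.331). Over all named genes 23.6% were called.

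IL12RB2, a chain of the interleukin-12 receptor, rose from -4.30, -4.23 and -3.98 to -3.79, -3.53 and -3.66 (0.51, SE 0.10, adjusted p = 0.0076). TLR7, a sensor of single-stranded RNA, rose from -4.51, -4.43 and -4.75 to -4.17, -3.86 and -3.83 (0.61, SE 0.15, adjusted p = 0.0171). P2RX7, a channel opened by extracellular ATP, rose by 0.45 (SE 0.14, adjusted p = 0.0484). Its call was lost in 8 of 19 alternative settings, among them without control 1, 2 or 3 or robenacoxib 2 or 3. The probes of IL12RB2, TLR7 and P2RX7 are dim. Their differences with slide as a fixed block were 0.84, 0.75 and 0.12 in that order, with none called.

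CD1A6, a lipid-presenting molecule of the CD1 family, rose by 0.68 (SE 0.17, adjusted p = 0.0215), and its probe may share sequence with other members of that family. Its call was lost in 10 of 18 alternative settings, among them without control 1 or 2 or robenacoxib 2 or 3, and the difference was 0.25 with normexp and quantile normalization. EPB41L5, a cytoskeletal adaptor at cell junctions, rose from -5.04, -5.07 and -5.22 to -4.56, -4.68 and -4.45 (0.55, SE 0.10, adjusted p = 0.00604), against 0.11 with slide as a fixed block. TBXT, the T-box transcription factor brachyury, was well above background on 3 of 3 robenacoxib arrays and on 0 of 3 controls. Taking the lowest signal well above background as the control level, it was at least 2.42-fold higher. TBXT was tested only because of its signal on the robenacoxib arrays, so its call is no support for the rise, and the call was lost without control 2, control 3, robenacoxib 1 or robenacoxib 3 and with either slide block.

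**Figure D2:**
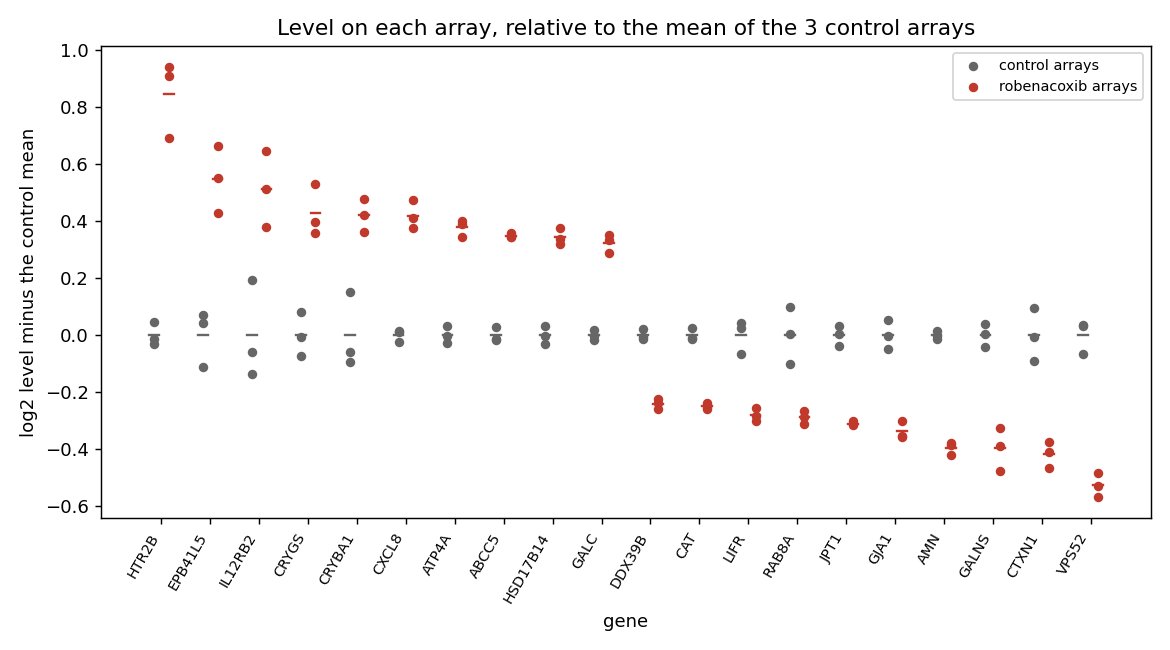
Level on each of the 6 arrays for 20 genes (log2, y axis), relative to the mean of the 3 control arrays; points are arrays and short lines are group means. The genes are the 10 largest rises and 10 largest falls among 43 genes called in 17 of 17 settings other than the fixed slide block and spike-in scaling, chosen after their values were seen; robenacoxib and control arrays do not overlap in any of them, and with spike-in scaling RAB8A, LIFR, CAT and DDX39B lie above 0.

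CXCL8, the neutrophil-attracting chemokine interleukin-8, had the smallest adjusted p among the tested chemokines and inflammatory cytokines. It stood at -0.98, -1.02 and -0.98 on the control arrays and -0.62, -0.52 and -0.58 on the robenacoxib arrays, so the groups were separated by several times the spread within either. The difference was 0.42, 1.34-fold (SE 0.035, adjusted p = 6.32e-05), and the other 3 probes of the gene were called higher too, at 0.23, 0.37 and 0.32. With slide as a fixed block the difference was 0.42 (adjusted p = 0.0632). The block values of the other 3 probes, in the same order, were 0.13 (not called), 0.57 (adjusted p = 0.0395) and 0.53 (adjusted p = 0.0355).

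Of 21 tested chemokines and inflammatory cytokines, 3 were called higher and 1 lower, a share near the background of 22.3%. IL12A, a subunit of interleukin-12, rose by 0.24 (SE 0.050, adjusted p = 0.0082) and IL5, a cytokine of eosinophils, by 0.13 (SE 0.039, adjusted p = 0.0368). CCL17, a chemokine for T cells, fell by 0.15 (SE 0.038, adjusted p = 0.0241) but was 0.15 with spike-in scaling. IL6, IL1A, IL1B and CCL2 had no tested probe. Among 7 interferon-response genes and innate sensors, TLR7 rose, and OAS1, OAS2 and OAS3 were not called. MX1, an interferon-induced antiviral GTPase, fell by 0.11 (SE 0.025, adjusted p = 0.0125) and was 0.19 with spike-in scaling. The second MX1 probe was not called (-0.13, adjusted p = 0.271).

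The regulators of cell death moved both ways. Of 14 tested genes, 2 were called higher and 3 lower, beside 23.6% of all named genes called, with a median of -0.040. MCL1, a short-lived inhibitor of mitochondrial apoptosis, stood at 2.60, 2.64 and 2.63 on the control arrays and 2.87, 2.83 and 2.93 on the robenacoxib arrays. It rose 1.20-fold (0.26, SE 0.041, adjusted p = 0.00232). BCL2, an inhibitor of the same family, rose from 0.76, 0.70 and 0.70 to 0.94, 0.93 and 0.86 (0.19, SE 0.035, adjusted p = 0.00483).

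DIABLO, a mitochondrial protein that relieves caspases of their inhibitors, fell from 1.57, 1.62 and 1.65 to 1.38, 1.43 and 1.38 (-0.22, SE 0.028, adjusted p = 0.00084). BIRC5, survivin, which inhibits apoptosis and serves in cell division, fell by 0.18 (SE 0.041, adjusted p = 0.0122), but was not called in the authors' deposited values (-0.029, adjusted p = 0.718), with normexp (-0.086 and -0.033) or with the 6 arrays alone. BAD, a pro-apoptotic relative of BCL2 named here after its values were seen, fell by 0.13 (SE 0.034, adjusted p = 0.0247). With spike-in scaling these 3 differences were 0.081, 0.11 and 0.17, all above 0. BCL2L2, another survival factor, missed the threshold (-0.10, interval -0.18 to -0.022, adjusted p = 0.0709), as did BAX, BAK1, BCL2L1, CASP8 and CASP9.

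Genes of the cell cycle and of DNA repair also split, with 3 of 7 called higher and 3 lower, beside 23.6% of all named genes called. BRCA1, which acts in repair of DNA breaks, stood at -1.61, -1.64 and -1.65 on the control arrays and -1.33, -1.38 and -1.40 on the robenacoxib arrays, a rise of 0.27 (SE 0.038, adjusted p = 0.00146) that was 0.084 with slide as a fixed block (adjusted p = 0.566). BRCA2, its partner in that repair, rose by 0.16 (SE 0.034, adjusted p = 0.00868), and MDM2, the ubiquitin ligase for p53, by 0.12 (SE 0.034, adjusted p = 0.034); MDM2 was named after its values were seen. PRKDC, the catalytic subunit of the DNA-dependent protein kinase, rose by 0.21 (SE 0.046, adjusted p = 0.0104) but by 0.0014 with slide as a fixed block.

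CCND1, cyclin D1, which drives entry into the cell cycle, fell from 3.16, 3.13 and 3.14 to 2.92, 2.89 and 2.96 (-0.22, SE 0.027, adjusted p = 0.000664). CDKN1B, the inhibitor p27, fell by 0.20 (SE 0.037, adjusted p = 0.00498), a direction that turned with normexp and 75th-percentile scaling (0.0098), and its second probe was not called (-0.083). CCNB3, a cyclin named after its values were seen, fell by 0.15 (SE 0.037, adjusted p = 0.0188). With spike-in scaling the 3 stood at 0.079, 0.098 and 0.15. TERT was not called.

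Transcription factors of growth and stress gave no call among 4 tested. MYC stood at 0.42, 0.47 and 0.47 on the control arrays and 0.47, 0.56 and 0.57 on the robenacoxib arrays, a difference of 0.075 with an interval of 0.0024 to 0.15 (adjusted p = 0.132). FOSB, NFKB1 and NR4A1 also missed the threshold. Among genes of hypoxia and glycolysis, ADM, the vasodilator peptide adrenomedullin, rose by 0.10 (SE 0.029, adjusted p = 0.0295), but the difference was -0.0096 with slide as a fixed block.

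VEGFA, a growth factor for blood vessels, differed by 0.084 on its brighter probe (interval -0.0021 to 0.17, adjusted p = 0.153) while its dimmer probe was called lower (-0.28, adjusted p = 0.00592). The 2 probes point different ways, and 1 was called. VHL, which targets hypoxia-inducible factor for degradation, fell by 0.23 (SE 0.056, adjusted p = 0.0178) and was 0.066 with spike-in scaling. The second VHL probe was not called (-0.15, adjusted p = 0.408). GAPDH, a glycolytic enzyme often used as a reference, fell by 0.29 (SE 0.072, adjusted p = 0.0183), a call shared by 3 of its 7 probes, and stood at 0.0039 with spike-in scaling, 0.042 in the authors' deposited values and 0.029 after quantile normalization of normexp-corrected signals.

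Of 13 tested enzymes of drug and steroid metabolism 2 were called higher and 1 lower, a share near the 23.6% of all named genes. CYP3A12, a dog cytochrome P450 of the main drug-oxidising subfamily, stood at -4.40, -4.49 and -4.33 on the control arrays and -3.86, -4.08 and -3.92 on the robenacoxib arrays, a rise of 0.45 (SE 0.11, adjusted p = 0.0147). Dog CYP3A genes are near-identical, so the probe may not separate them. HSD17B14, a steroid dehydrogenase, rose from -2.04, -2.01 and -1.98 to -1.67, -1.64 and -1.69 (0.34, SE 0.034, adjusted p = 0.000183), and its second probe was called too (0.29). CYP2B6, another P450, fell by 0.17 but lay above 0 with spike-in scaling (0.12).

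ABCC5, an exporter of cyclic nucleotides and nucleotide drugs, stood at 0.683, 0.640 and 0.643 on the control arrays and 1.014, 0.998 and 0.998 on the robenacoxib arrays. These values hardly varied within a group, and the rise of 0.35 (SE 0.035, adjusted p = 0.00019) was matched by the other 2 probes, at 0.33 and 0.58. ABCB1, the multidrug exporter P-glycoprotein, missed the threshold on its brighter probe (0.12, interval 0.034 to 0.21, adjusted p = 0.0515). Its dimmer probe was called higher at 0.82 (adjusted p = 1.25e-05) and stayed called with slide as a fixed block (0.85, adjusted p = 0.0137). ABCC1 and ABCA4 were not called. On the brightest probes, 1 of the 4 tested ABC transporters was thus called, beside 23.6% of all named genes.

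Pumps, channels and carriers added a few calls. ATP4A, the catalytic subunit of the gastric proton pump, rose from -3.22, -3.25 and -3.19 to -2.83, -2.88 and -2.82 (0.38, SE 0.041, adjusted p = 0.000292). SLC3A1, a subunit of the cystine transporter, rose by 0.20 (SE 0.051, adjusted p = 0.0219). SLC11A1, a metal transporter of phagosomes, fell by 0.23 (SE 0.031, adjusted p = 0.00106) but was 0.068 with spike-in scaling. The second probes of SLC3A1 and SLC11A1 were not called, at 0.18 (adjusted p = 0.101) and -0.050 (adjusted p = 0.468). KCNMB1, a potassium channel subunit, fell by 0.19 and was 0.11 with spike-in scaling.

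Among 20 tested lysosomal genes 1 was called higher and 4 lower, a share near the 23.6% of all named genes. GALC, which degrades galactosylceramide, stood at -3.62, -3.58 and -3.60 on the control arrays and -3.27, -3.25 and -3.31 on the robenacoxib arrays, a rise of 0.32 (SE 0.023, adjusted p = 2.88e-05). GALNS, which removes sulfate from keratan sulfate, stood at -2.49, -2.53 and -2.45 on the control arrays and -2.82, -2.97 and -2.88 on the robenacoxib arrays, a fall of 0.40 (SE 0.046, adjusted p = 0.000445) that stayed below 0 with spike-in scaling (-0.10). SGSH, a heparan sulfatase, and ARSA, the sulfatide sulfatase, fell by 0.20 and 0.13, but were 0.10 and 0.16 with spike-in scaling. NPC1, which exports cholesterol from lysosomes, missed the threshold on its brighter probe (0.11, adjusted p = 0.0519) and passed it on the second (0.15, adjusted p = 0.00797).

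VPS52, a subunit of a complex that tethers vesicles returning to the Golgi, gave the largest fall among the named genes that were called. It stood at -0.47, -0.37 and -0.37 on the control arrays and -0.88, -0.93 and -0.97 on the robenacoxib arrays. The fall of 0.53, 1.44-fold (SE 0.037, adjusted p = 2.58e-05), remained called with slide as a fixed block (-0.55, adjusted p = 0.0356) and with spike-in scaling (-0.23, adjusted p = 0.00102). Only 1 of its 4 tested probes showed it: the other 3, which were dimmer, differed by 0.034, 0.078 and 0.025, and none of them was called.

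With each of the 145 called genes read on its brightest probe, only VPS52 and RPPH1 stayed called with slide as a fixed block. RPPH1 is the RNA of ribonuclease P, which matures transfer RNAs. It stood at -1.71, -1.81 and -1.75 on the control arrays and -2.11, -2.08 and -2.03 on the robenacoxib arrays, a difference of -0.32 (SE 0.063, adjusted p = 0.00758), of -0.63 with the block (adjusted p = 0.0255) and of -0.019 with spike-in scaling. It was not called with normexp, at -0.12 and -0.16, or in the authors' deposited values (-0.16, adjusted p = 0.229). The lowest control array was above the highest robenacoxib array.

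Of 6 genes of the Golgi, vesicle coats and tethers, VPS52, RABAC1 and CAV2 were called lower and none higher, beside 23.6% of all named genes called. RABAC1 and CAV2, which act in vesicle traffic and caveolae, fell by 0.12 and 0.10 but were 0.17 and 0.19 with spike-in scaling, and CAV2 was also above 0 in the authors' deposited values (0.063) and with normexp and quantile normalization (0.064). Of 13 RAB and other small GTPases 3 were called lower and none higher, a share near the 23.6% of all named genes, and all 3 were above 0 with spike-in scaling. RAB8A, a GTPase of exocytosis, fell from -2.89, -2.78 and -2.69 to -3.05, -3.09 and -3.07 (-0.29, SE 0.051, adjusted p = 0.00412; 0.0085 with spike-in scaling). RAB2A, of transport between the endoplasmic reticulum and Golgi, and RHOA, a regulator of actin, fell by 0.15 and 0.12. Their spike-scaled values were 0.14 and 0.17. The second RHOA probe was not called (-0.068, adjusted p = 0.096).

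A list that joins chromatin genes with genes of the histocompatibility region, VPS52 among them, had 5 of 20 tested genes called lower and none higher, beside 145 of 614 called over all named genes (23.6%), 102 of them lower. With spike-in scaling 2 of the 5 were below 0. DLA-DMA, a chain of the peptide-exchange factor of class II presentation, fell from -2.71, -2.64 and -2.69 to -3.09, -3.03 and -2.92 (-0.33, SE 0.054, adjusted p = 0.00268; -0.037 with spike-in scaling). PSMB9, an immunoproteasome subunit, fell by 0.21 (SE 0.028, adjusted p = 0.000931), and its second probe by 0.16. BRD2, a bromodomain protein that binds acetylated histones, fell by 0.13 (SE 0.023, adjusted p = 0.00492) on its brightest probe. A second probe was called at -0.31, and the dimmest was not called, at 0.38. With spike-in scaling PSMB9 and BRD2 were above 0, at 0.087 and 0.17.

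Of 14 tested genes of adhesion and junctions 1 was called higher, EPB41L5, and 2 lower, beside 23.6% of all named genes called. PODXL, an anti-adhesive sialomucin, fell by 0.38 (SE 0.090, adjusted p = 0.0158), and GJA1, the gap junction protein connexin 43, fell from -1.85, -1.80 and -1.74 to -2.15, -2.15 and -2.10 (-0.34, SE 0.068, adjusted p = 0.0078); both stayed below 0 with spike-in scaling, at -0.084 and -0.039. GJA1 had no such difference with slide as a fixed block (0.0078, adjusted p = 0.981). AMN, part of the receptor that takes up vitamin B12 in the gut, stood at 6.62, 6.63 and 6.60 on the control arrays and 6.24, 6.20 and 6.23 on the robenacoxib arrays, a fall of 0.39 (SE 0.041, adjusted p = 0.000248; -0.098 with spike-in scaling). CTXN1, a small brain membrane protein, fell by 0.42 (SE 0.056, adjusted p = 0.00103; -0.12 with spike-in scaling).

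ST6GALNAC1, which adds sialic acid to O-linked glycans, was dim and fell from -4.86, -4.76 and -5.04 to -5.36, -5.60 and -5.26 (-0.52, SE 0.14, adjusted p = 0.0273). Its call was lost in 12 of 19 alternative settings, among them without control 1 or 2 or robenacoxib 1 or 2, and the difference shrank to -0.036 with normexp and 75th-percentile scaling. KLK1, tissue kallikrein, fell by 0.41 on 1 of 2 probes, and MADCAM1, an adhesion molecule for lymphocytes, by 0.36 on 1 of 2. RHCG, an ammonium channel, fell by 0.32, but was 0.0055 with normexp and 75th-percentile scaling. JPT1, a microtubule-associated protein, fell by 0.31 with both probes called, but with slide as a fixed block its probes were at -0.055 and 0.012. With spike-in scaling these 5 were still below 0, at values between -0.22 and -0.013.

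Among 9 collagens and matrix proteins, COL7A1, of the anchoring fibrils of skin and mucosa, rose from -0.49, -0.52 and -0.50 to -0.34, -0.24 and -0.23 (0.23, SE 0.035, adjusted p = 0.00165). The second COL7A1 probe was not called (0.12, adjusted p = 0.232). DCN and BGN, 2 small leucine-rich proteoglycans, fell by 0.35 and 0.17, and COL1A1, a chain of type I collagen, by 0.12. DCN stayed below 0 with spike-in scaling (-0.055), while BGN and COL1A1 were 0.13 and 0.18, and COL1A1 was 0.0087 in the authors' deposited values. Of the other COL1A1 probes, that at -0.31 was called, and those at -0.013 and -0.14 were not. TIMP1 and TIMP2, inhibitors of matrix metalloproteinases, fell by 0.19 and 0.19 and were 0.11 and 0.10 with spike-in scaling. MMP3 and MMP9 were not called.

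Antioxidant and metal-binding genes gave 3 lower calls of 13, a share near the 23.6% of all named genes, each above 0 with spike-in scaling. CAT, catalase, stood at 1.90, 1.86 and 1.86 on the control arrays and 1.62, 1.64 and 1.62 on the robenacoxib arrays, a fall of 0.25 (SE 0.023, adjusted p = 0.000104; 0.046 with spike-in scaling). The metallothioneins MT2A and MT1E, which bind zinc and copper, fell by 0.18 and 0.16, and were 0.12 and 0.13 with that scaling. Such small multicopy genes are near-identical, and their probes may not separate them. SOD1, GPX1 and TXNRD1 were not called.

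Of 14 genes of protein entry into the endoplasmic reticulum 2 were called, beside 23.6% of all named genes. SEC61B, a subunit of the translocation channel, rose by 0.093 (SE 0.024, adjusted p = 0.0222) and SEC11A, of the signal peptidase, fell by 0.097 (SE 0.030, adjusted p = 0.045; 0.20 with spike-in scaling). The call of SEC61B was lost in 8 of 19 alternative settings, among them without control 1 or 3 or robenacoxib 1 or 2. The 4 tested chaperone and calcium-store genes, among them HSP90B1 and CANX, gave no call. Of 4 heat shock genes none was called on its brightest probe. HSP70, the inducible chaperone, stood at 2.79, 2.88 and 2.90 on the control arrays and 3.00, 2.91 and 2.98 on the robenacoxib arrays (difference 0.11, interval 0.028 to 0.19, adjusted p = 0.058), while 2 of its other 3 probes were called higher, at 0.21 and 0.18. Inducible HSP70 genes have near-identical copies that its probes may not separate.

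ESRRA, an orphan nuclear receptor that controls mitochondrial genes, stood at -0.60, -0.61 and -0.61 on the control arrays and -0.41, -0.43 and -0.44 on the robenacoxib arrays. The spread within each group was small beside the rise of 0.18 (SE 0.022, adjusted p = 0.000618). The call of ESRRA was lost with normexp, in the authors' deposited values and with slide as a fixed block (0.17, adjusted p = 0.187). Its smallest change over the alternative settings was 0.057. The second ESRRA probe was not called (0.13, adjusted p = 0.137) and was -0.078 with the fixed block. PPARD, a lipid-sensing nuclear receptor that some anti-inflammatory drugs act on, differed by 0.020 with an interval of -0.065 to 0.11 (adjusted p = 0.759). TGM1, a transglutaminase of the epidermal barrier, missed the threshold (0.19, interval 0.040 to 0.33, adjusted p = 0.07). CRYGS and CRYBA1, lens crystallins, rose by 0.43 (SE 0.058, adjusted p = 0.00107) and 0.42 (SE 0.074, adjusted p = 0.00405) from dim levels. The second CRYBA1 probe was not called (-0.0092, adjusted p = 0.983).

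The melanocyte identity of the line could be checked only in part. Of the markers TYR, TYRP1, DCT, PMEL, MLANA, SOX10, S100B, MC1R, KIT, EDNRB and MITF, only 5 had a named probe. MITF, the master regulator of melanocytes, was well above background on all 6 arrays, at -0.57, -0.54 and -0.53 on the control arrays and -0.46, -0.46 and -0.47 on the robenacoxib arrays, a difference of 0.087 (interval 0.025 to 0.15, adjusted p = 0.0504). TYR, tyrosinase, and EDNRB were well above background on 0 of the 6 arrays, KIT on 2 and MC1R on 5. None of the 9 tested pigment and lineage genes was called.

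Markers of other cell types were checked beside the gene groups above. The 4 fibroblast and mesenchymal markers, led by COL1A2 and COL1A1, summed to 6.21 to 6.25 on the control arrays and 6.14 to 6.16 on the robenacoxib arrays in log2, with COL1A1 and DCN called lower. The 4 endothelial markers summed to 1.69 to 1.74 and 1.61 to 1.74, with THBD, an anticoagulant surface protein, called lower (-0.15) and KDR well above background on 0 of 6 arrays. The 7 leukocyte markers summed to 0.20 to 0.25 and 0.12 to 0.45, with CD40LG called higher (0.13) and FCGR1A lower (-0.21), and MS4A1 well above background on 0 arrays. The second CD40LG probe was not called (-0.017, adjusted p = 0.965), nor was the second THBD probe (-0.58, adjusted p = 0.158). Of 2 epithelial markers, CLDN3 was not called and OCLN was above background on 0 arrays. The lower calls of THBD, FCGR1A and COL1A1 turned positive with spike-in scaling, and the part of these markers in other results was not tested.

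The remaining lists gave few calls each, beside 23.6% of all named genes called in either direction. Of 18 kinase and phosphatase genes of signal transduction 2 rose (PRKDC and PRKCD) and 3 fell, led by PRKACA, the catalytic subunit of protein kinase A (-0.26; 0.034 with spike-in scaling). The second PRKCD probe was not called (-0.12, adjusted p = 0.248). Of 14 growth factors and receptors, MET, the hepatocyte growth factor receptor, rose by 0.11 (SE 0.030, adjusted p = 0.0247) and none fell. The second MET probe was not called (-0.0047, adjusted p = 0.937). UCP2, a mitochondrial carrier, and CLU, the chaperone clusterin, were lower of 6 genes of lipid metabolism, by 0.21 and 0.13, but both turned positive with spike-in scaling and in the normexp fit scaled to the 75th percentile, and CLU also in the authors' deposited values (0.099). THBD and TFPI were lower of 6 coagulation genes, UTRN was higher and DAG1 lower of 11 cytoskeletal genes, and RPL27 was lower of 3 ribosomal and RNA-handling genes, the lower ones all above 0 with spike-in scaling. The second TFPI probe was not called (0.0018, adjusted p = 0.99), nor was the second RPL27 probe (-0.095, adjusted p = 0.0981). Of 10 vision genes none was called in either direction.

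**Figure D3:**
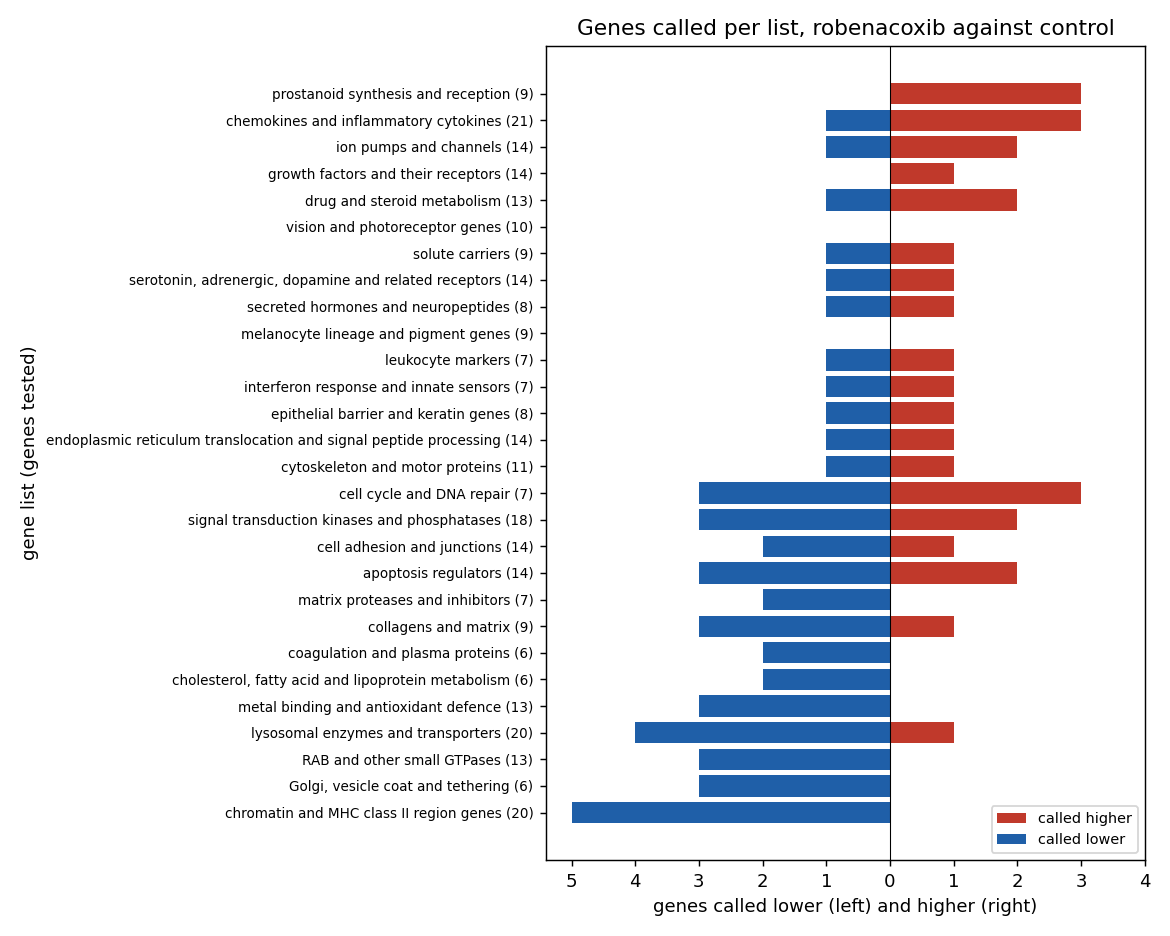
Number of genes called lower (blue, left) and higher (red, right) with robenacoxib in each gene list with at least 6 tested genes; the number tested stands in brackets. Prostanoid genes hold 3 higher and 0 lower calls, and the mixed list of chromatin and MHC class II region genes 0 and 5. Of all named genes 23.6% were called in either direction. With spike-in scaling only 15 of all 102 lower genes stay below 0, and only 1 is still called lower.

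Adding slide to the model widened the error. With slide as a fixed block the median SE rose from 0.053 to 0.11 and 448 probes (1.40%) were called, 5147 at an unadjusted p below 0.05. Of the 7144 calls, 96.8% kept their sign and 359 (5.03%) stayed called. Both fits use the same arrays, and these probes were picked by their change without the block. The kept signs are therefore no separate support for the calls. Of the 145 named genes, read on their brightest probes, VPS52 and RPPH1 stayed called. The block estimate reaches control only through piroxicam 3 and carprofen 1. The median absolute difference between the 2 slides in that fit was 0.10, beside a median absolute difference of 0.11 between robenacoxib and control without the block. Both medians include the error of the estimates. In the block fit, limma's F test of the slide terms called 48 of 31928 probes. The slide terms rest on piroxicam 3 and carprofen 1 against the other arrays of those drugs. With so few arrays the count cannot show that the slides were alike. With slide as a random block 98 of the 145 genes stayed called. Beside the change without it, the fixed block left 82 of the 145 within 1.5 times, made 38 smaller and 21 larger by more than that, and turned 4. TBXT aside, genes described above that shrank and whose block value is not yet given are AMN (-0.22), ARSA (-0.088), ATP4A (0.18), BRD2 (-0.072), CCL17 (-0.040), COL1A1 (-0.024), FCGR1A (-0.064), GAPDH (-0.051), IL12A (0.13), KCNMB1 (-0.12), MCL1 (0.14), PTGER4 (0.087), RAB8A (-0.19), RPL27 (-0.050) and TIMP2 (-0.0045).

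**Figure D4:**
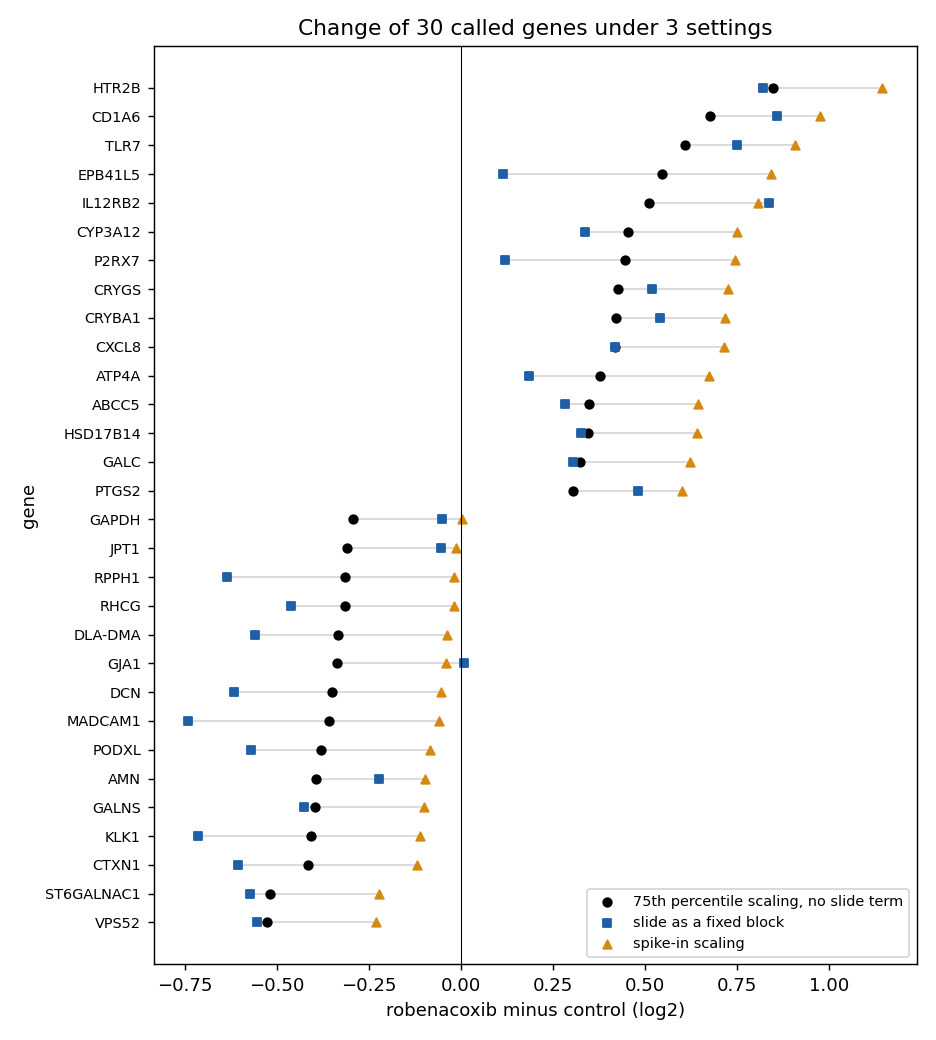
Robenacoxib minus control (log2, x axis) for the 15 largest called rises, TBXT left out, and 15 largest called falls among reported genes (y axis, genes) under 3 settings. Circles use 75th-percentile scaling with no slide term, squares add slide as a fixed block, and triangles scale to spiked-in transcripts, which shifts each gene by 0.30; the falls stay below 0 in each setting except GJA1, at 0.0078 with the block, and GAPDH, at 0.0039 with spike-in scaling.

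Set beside the other drugs, which share these control arrays, robenacoxib differed from piroxicam in 8702 probes (27.2%) and from carprofen in 2618 (8.18%). Doses were not matched: the sample labels give 116 µM piroxicam and 779 µM carprofen, which the protocol exchanges. Of the 145 genes called with robenacoxib, 70 differed from piroxicam and 23 from carprofen. Of 31998 tested probes, 109 were higher and 100 lower with robenacoxib than with control and with both drugs. So were 4 of 614 named genes, ESRRA and SEC61B higher and RPPH1 and VPS52 lower. That share of named genes was near the share of all tested probes. ESRRA exceeded piroxicam by 0.16 (adjusted p = 0.000635) and carprofen by 0.27 (adjusted p = 0.000266). VPS52 was lower than with either drug, at a difference of -0.38 from piroxicam (adjusted p = 0.0001) and -0.18 from carprofen (adjusted p = 0.0182). In the fit with a fixed slide block 5865 probes were called against piroxicam and 95 against carprofen. ESRRA, VPS52 and RPPH1 then kept their call against piroxicam, at 0.17, -0.36 and -0.27, SEC61B lost it (0.10, adjusted p = 0.0894), and none of the 4 was called against carprofen. With spike-in scaling the difference of RPPH1 from piroxicam (-0.077, adjusted p = 0.419) and that of SEC61B from carprofen (0.099, adjusted p = 0.22) were not called.

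PTGS2 separated robenacoxib from piroxicam. Against control PTGS2 changed by 0.30 with robenacoxib, -0.49 with piroxicam and 0.47 with carprofen, and robenacoxib exceeded piroxicam by 0.79 (adjusted p = 6.04e-06). CXCL8 separated it from carprofen, with 0.42, 0.49 and -0.12 in the same order and a robenacoxib-minus-carprofen difference of 0.54 (adjusted p = 9.1e-05). HSP70 rose with piroxicam (0.38) and carprofen (0.42), and was lower with robenacoxib than with either, at differences of -0.27 (adjusted p = 0.000545) and -0.31 (adjusted p = 0.00164). HTR2B was between them, at 0.85 beside 0.42 and 1.10, and differed from both (adjusted p = 0.00122 and 0.0453). MX1 was lower than with carprofen (difference -0.21, adjusted p = 0.00175) and higher than with piroxicam (difference 0.20, adjusted p = 0.000419). The fixed slide block left the differences from piroxicam of PTGS2, HSP70, HTR2B and MX1 at 0.88, -0.28, 0.37 and 0.20, all called. Against carprofen CXCL8 was still called (0.57, adjusted p = 0.0286), while HSP70 (-0.30), HTR2B (-0.32) and MX1 (-0.21) were not. Spike-in scaling turned none of these differences between drugs and ended the call of HTR2B against carprofen (-0.30, adjusted p = 0.0851).

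**Figure D5:**
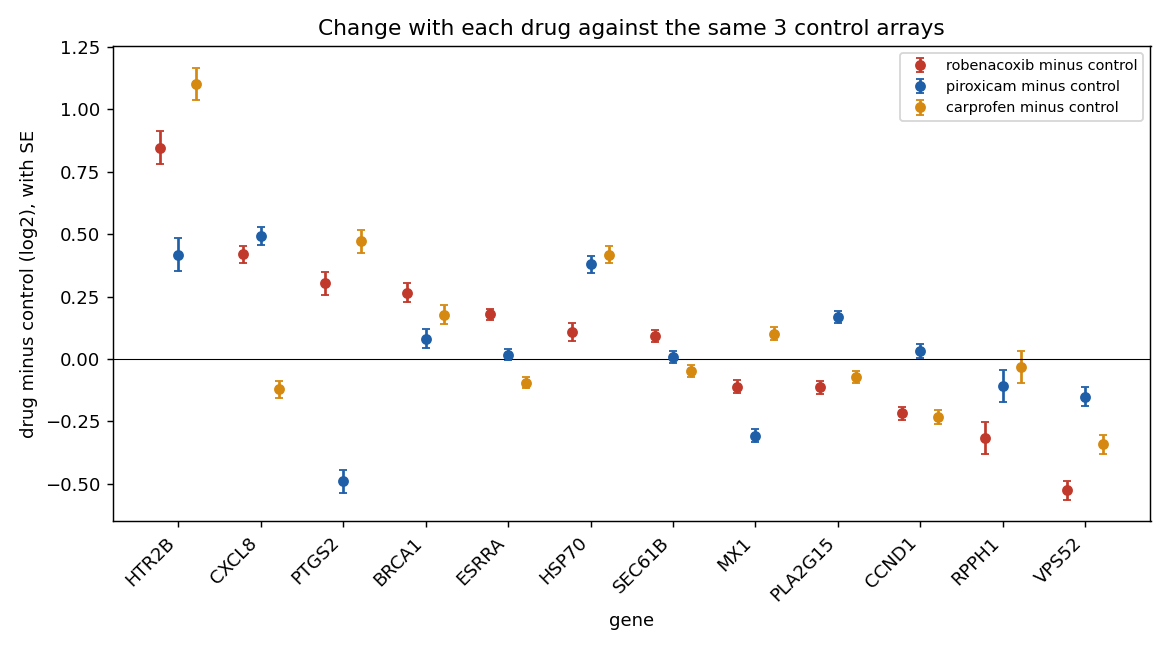
Change against control (log2, y axis) with robenacoxib, piroxicam and carprofen for 12 genes chosen after their values were seen; points are group differences against the same 3 control arrays and bars are SEs. PTGS2 lies at 0.30 with robenacoxib and -0.49 with piroxicam, and CXCL8 at 0.42 with robenacoxib and -0.12 with carprofen; with spike-in scaling MX1, PLA2G15 and CCND1 turn positive with robenacoxib.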

How the data were processed

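The members are arrays, chosen by their titles; members, gene lists and the naming rule were chosen with earlier results of these data known. Deposited scanner files of one-colour Agilent arrays hold spot intensity read by Feature Extraction 10.7.3.1, per the file headers, with background subtracted and no normalization across arrays. The authors' deposited table is on a log2 scale as judged from its values, and the submitters' processing notes name limma 3.24.15; its background correction is not given in the sources used here, and it served as an alternative.

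With R 4.3.3 and limma 3.58.1, log2 processed signals were taken relative to each array's 75th percentile over non-control spots. Outlier-flagged spots were left out (14 probe values were missing), spots of a probe were averaged, and of 43603 probes the 31998 with signal well above background on each of the 3 arrays of some group were tested. No spot was saturated. One model was fitted to 12 arrays (8 residual degrees of freedom), with two-sided tests and Benjamini-Hochberg adjustment. The number of arrays limits the precision (median SE 0.053). The script was tested on simulated data.

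Alternatives were scaling to 8 spike-in transcripts, normexp (offset 50), quantile normalization, other filters, slide or replicate as a block, the 6 arrays alone, and leaving out each array. Normexp used the median signal, since the mean signal was not used here. A gene below background on all arrays of a group is given as a bound, with each dim array set to its lowest signal well above background, or to the probe's own signal where that was higher. Names came from a RefSeq table (assembly UU_Cfam_GSD_1.0, used for names only): 1313 probes (3.01%) had 832 symbols, and 42290 had none, so named genes are a small part of the array. A gene was read on its brightest tested probe. HSP70 entered the heat shock list under that table's symbol. Named are the 15 largest rises and falls among genes called without overlap, up to 4 called members of each list, a set of genes fixed by name, and 4 unnamed probes, besides genes marked as chosen after their values were seen. Results of 3 genes are not reported here. No sequences were used.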

Additional observations from a re-analysis of the deposited data

How the results depend on the processing

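Of 7144 probes called against control, leaving out 1 array of either group left 4676 to 5798, the fewest without control 2. The count was 4569 with normexp and 75th-percentile scaling, 21734 with spike-in scaling, 448 with slide as a fixed block and 4578 with slide as a random block. The share called higher was 43.1%, 48.7% to 52.7% with the normexp, quantile and authors' values and with the percentile over probes detected on all 12 arrays, 71.2% with the fixed block and 99.3% with spike-in scaling. Of 44 probes of at least 2-fold, 6 and 4 were left with the 2 normexp settings, 11 in the authors' deposited values and 20 among probes above background on all 12 arrays; there were 200 with spike-in scaling, 143 without a filter on dim probes and 75 with the fixed block, and 42 to 59 without 1 array. Of 145 named genes, 91 were called with normexp and 75th-percentile scaling, 379 with spike-in scaling, 2 with the fixed block and 90 to 131 without 1 array. Calls against piroxicam went from 8702 to 4672 with normexp and 75th-percentile scaling, and were 6909 to 8262 without 1 array. Calls against carprofen went from 2618 to 214 and 662 with the normexp settings, 1187 with spike-in scaling, 555 in the authors' values, 1435 without a filter on dim probes, 95 and 1433 with slide as a fixed and random block, 1402 with the replicate block, and 1189 to 2108 without 1 array. The causes were not tested.

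The 43 genes kept in 17 of 17 settings other than the fixed slide block and spike-in scaling were 20 higher and 23 lower. Directions turned for 39 of the 98 genes chosen by the naming rule with spike-in scaling, which adds a constant to each log2 change: ADORA2A 0.14, ARSA 0.16, BCL2L2 0.19, BGN 0.13, BIRC5 0.11, BRD2 0.17, CAT 0.046, CAV2 0.19, CCL17 0.15, CCND1 0.079, CDKN1B 0.098, CLU 0.17, COL1A1 0.18, CYP2B6 0.12, DAG1 0.042, DIABLO 0.081, FCGR1A 0.089, GAPDH 0.0039, KCNMB1 0.11, MT1E 0.13, MT2A 0.12, MX1 0.19, PDE6D 0.21, PRKACA 0.034, PSMB9 0.087, RAB2A 0.14, RAB8A 0.0085, RABAC1 0.17, RHOA 0.17, RPL27 0.19, SEC11A 0.20, SGSH 0.10, SLC11A1 0.068, TFPI 0.18, THBD 0.15, TIMP1 0.11, TIMP2 0.10, UCP2 0.084 and VHL 0.066. They turned with normexp and 75th-percentile scaling for CDKN1B 0.0098, CLU 0.039, DAG1 0.025, RHCG 0.0055 and UCP2 0.022, with normexp and quantile normalization for CAV2 0.064, CLU 0.099, DAG1 0.00069 and GAPDH 0.029, in the authors' deposited values for CAV2 0.063, CLU 0.099, COL1A1 0.0087, DAG1 0.0015 and GAPDH 0.042, and with slide as a fixed block for ADM -0.0096 and GJA1 0.0078.

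The replicate numbers are shared between the groups but mark nothing the labels name. Deviations of same-numbered control and robenacoxib arrays correlated at -0.099, 0.15 and -0.12, so the numbers were not taken to pair the samples. With the replicate block 5513 probes and 121 named genes were called. Signal over background limits the dim genes, where the SE was largest, and the number of arrays limits the precision throughout.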

Other observations

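Some differences between drugs were found outside the genes above, in genes singled out after their values were seen. PDPN, the mucin-like surface protein podoplanin, was called lower with robenacoxib (-0.12) and higher with piroxicam (0.16), a difference of -0.28 (adjusted p = 3.93e-05, limma). COX17, a copper chaperone for cytochrome oxidase that is unrelated to the cyclooxygenases, showed the same split (-0.15 and 0.11, difference -0.26, adjusted p = 0.000312). PLA2G15, a lysosomal phospholipase, did so too (-0.11 and 0.17, difference -0.28, adjusted p = 4.66e-05). The fixed slide block put the robenacoxib differences from control at -0.12, -0.015 and -0.14, none called. With spike-in scaling those of the 3 genes were above 0, at 0.18, 0.15 and 0.18.

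Of 5552 probes tied to assembled clusters of expressed sequence tags 16.6% were called higher and 12.7% lower, and of 14900 probes of predicted transcripts 8.30% and 15.2%. The difference between these classes of probe was not tested.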
